A study of Bos taurus with 3 samples.

Results

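Among the cells of the newborn calf rumen, 79 cells that carried C1Q transcripts were described here. They were selected on measured values: a cell was a member when it held at least 3 transcript counts (unique molecular identifiers, UMIs) of C1QA, C1QB and C1QC together and at least 1 UMI of CD74, with the epithelial keratins KRT5, KRT14 and KRT15 summing to less than 10 per 10000 UMIs. The 79 members stood among 26020 cells that passed the quality limits. These asked for 500 to 4000 genes with a UMI, allowed no more than 50000 UMIs and let the 13 mitochondrial coding genes take up to 40% of them. They were set against 329 cells, called comparators below, with the same low keratin, at least 30 UMIs of BOLA-DRA per 10000 and no C1Q UMI. BOLA-DRA encodes the alpha chain of the bovine MHC class II molecule DR and CD74 its invariant chain, so each rule asks for a transcript of the class II pathway, although 1 CD74 UMI was enough for a member. The comparison asks what else differs between cells with and without C1Q.

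C1q is the recognition part of the classical complement pathway. Its 3 chains, encoded by C1QA, C1QB and C1QC, fold together into a hexamer that binds antibody complexes and the surface of dying cells. Most complement proteins are made by the liver, but C1q is largely made by tissue macrophages and some dendritic cells. Resident macrophages of mucosal tissue clear debris, break it down in lysosomes, recycle iron and lipid, and depend on the receptor encoded by CSF1R.

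The data were 3 droplet libraries (10x Genomics 3′ chemistry), 1 from the rumen of each of 3 newborn dairy calves, taken 1 day after birth. The outer muscle was stripped and the tissue was digested warm with EDTA and trypsin and then with collagenase, dispase and hyaluronidase. Dead cells were removed where viability was low, and a sort for immune cells is not described. All 3 calves belong to 1 group with no treatment, the adult libraries were not analysed here, and each calf is 1 replicate. The libraries of calves 1, 2 and 3 held 82263092, 89803289 and 106145091 UMIs. Between 21 and 37 barcodes were shared by 2 libraries, and no barcode of a member was among them. Members had a median of 5546 UMIs in calf 1 (1 cell), 5838 in calf 2 and 5136 in calf 3, which was lower than the comparators of the same calves (10500, 7437 and 6885.5). Fewer cells of a type captured and fewer in the tissue could not be told apart.

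The members came unevenly from the calves, with 1 in calf 1, 17 in calf 2 and 61 in calf 3. That was 0.0205% of the kept cells of calf 1 (exact 95% confidence interval 0.000518 to 0.114), 0.160% of calf 2 (0.0930 to 0.255) and 0.582% of calf 3 (0.446 to 0.747), and the intervals of calves 2 and 3 did not overlap. The mean share was 0.254% ± 0.292 (SD, n = 3 calves). Calf 3 gave 77.2% of all members. Measured against antigen-presenting cells the order of calves 2 and 3 turned around. Of the cells with low keratin and at least 30 BOLA-DRA UMIs per 10000, 17 of 32 were members in calf 2, or 53.1% (34.7 to 70.9), against 52 of 374 in calf 3, or 13.9% (10.6 to 17.8). In calf 1 there were 2 such cells, of which 1 was a member. These intervals cover counting error only, and with 3 animals of 1 group no test between calves was run.

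**Figure D1:**
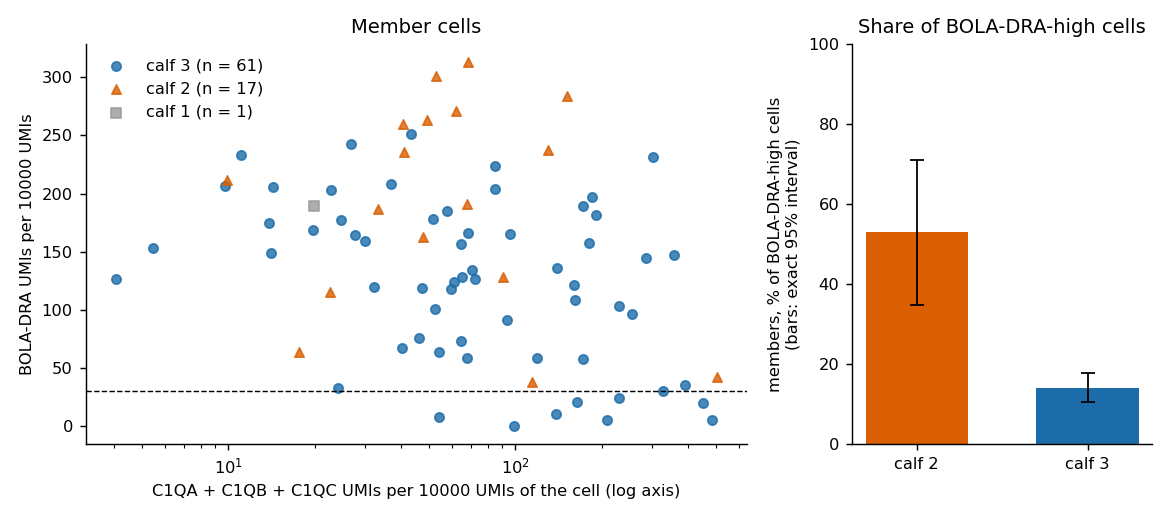
Left, each of the 79 members by its C1Q level (x axis, log scale) and its BOLA-DRA level (y axis), both as UMIs per 10000 UMIs of the cell, with the comparators' BOLA-DRA limit of 30 as a dashed line; 9 members of calf 3 lie below it. Right, the share of BOLA-DRA-high, low-keratin cells that were members in calves 2 and 3 with exact 95% intervals, 53.1% and 13.9%.

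The C1Q signal that chose the cells was seldom at the limit. The median member held 37 C1Q UMIs, the range in calf 3 was 3 to 297 and in calf 2 was 5 to 217, and the member of calf 1 held 11. At least 10 C1Q UMIs were found in 67 members, at least 50 in 31, and all 3 genes in 70. Just inside the limit, 3 cells had 3 C1Q UMIs and none had 4. Just outside it, 5 low-keratin cells had 2 and 12 had 1. The 15 of those 17 cells that held CD74 had CSF1R at 8.39 UMIs per 10000 and SELENOP at 7.45, where all members had 11.3 and 12.4, and APOE at 0.118 against 13.4. In keratin-positive cells, C1QA was found at 0.00231, 0.0126 and 0.0164 UMIs per 10000 in calves 1, 2 and 3. In the RefSeq annotation of the ARS-UCD2.0 assembly the C1Q genes are neighbours, in the order C1QB, LOC112443416, C1QC and C1QA among protein-coding genes, between EPHB2 and EPHA8.

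Of the markers fixed for this cell type, CSF1R, APOE and SELENOP were not used by the rule. They were fixed with earlier results of these data known, so their values describe the label and are no independent support for it. CSF1R, the receptor for the growth factors that keep macrophages alive, was found in 76 of 79 members. Its level in members was 14.4, 10.6 and 11.5 UMIs per 10000 in calves 1, 2 and 3, against 6.67, 3.102 and 3.29 in comparators. It was thus higher in members in calves 2 and 3. Calf 1 had 1 cell in each class, with 8 CSF1R UMIs in the member and 7 in the deeper comparator, so it shows no direction. The log2 difference over calves 2 and 3 was 1.73 ± 0.27 (SE, edgeR adjusted p = 4.15e-08). CSF1R passed in each of the 16 alternative settings that gave a test, with a highest adjusted p of 0.0166. Here and below, those settings include doublets removed, at most 20% mitochondrial UMIs and at least 10 cells in each sum. These kept the same cells in calves 2 and 3 and so repeat the main test. After every cell was thinned to 2000 UMIs, a CSF1R UMI was left in 82.9% of members (72.5 to 90.6; 96.2% unthinned), in 35.5% of comparators (30.3 to 41.0; 56.2% unthinned) and in 0.202% of keratin-positive cells.

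SELENOP, the secreted selenium carrier, reached 1.80, 2.76 and 15.8 UMIs per 10000 in the members of calves 1, 2 and 3, against 0, 0.517 and 1.16 in comparators (log2 difference 3.44 ± 0.35, SE; adjusted p = 7.36e-20). Calf 3 was the high one, and the direction held in both calves tested. SELENOP was not restricted to these cells, since 36.4% of thinned keratin-positive cells had a UMI of it. APOE, the lipid carrier protein, behaved differently in the 2 calves. Its level in members was 0, 4.85 and 16.4 UMIs per 10000 in calves 1, 2 and 3, against 0, 4.65 and 0.171 in comparators. The pooled log2 difference of 3.51 ± 0.38 (SE; adjusted p = 2.15e-17) therefore rested on calf 3, where it was 6.45, while in calf 2 it was 0.02. In calf 2 a single member held 45 of the 51 APOE UMIs, and a single comparator held all 45 of the comparators' UMIs. The call was lost with DESeq2 and without the calf as a block, with a highest adjusted p of 0.9999. CSF1R and SELENOP were thus higher in members in both calves tested, and APOE in calf 3.

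For tests across genes, the UMIs of members and of comparators were summed within each calf, and only calves 2 and 3 had at least 5 cells of both classes, with 17 members and 12 comparators in calf 2 and 61 and 316 in calf 3. Of 7825 genes tested with edgeR, leaving out those the rule used, 332 (4.24%) passed an adjusted p of 0.05, 200 (2.56%) higher in members and 132 (1.69%) lower. The median log2 difference of all genes tested was -0.01. These shares of higher and lower genes and this median are the background for the counts of every gene list below. With n = 2 calves the test has 1 residual degree of freedom of its own and borrows the rest from the spread of all genes. Other settings kept fewer calls: 46 with DESeq2, 59 without the calf as a block and 102 when cells holding UMIs of at least 2 markers of another cell type were left out, which leaves 11 members and 5 comparators in calf 2. All of those were also among the 332. DESeq2 was used here without its filter on mean counts, since with that filter it gave 67 calls but an adjusted p for 1904 of the 7825 genes. The DESeq2 setting without the filter and the setting without those cells were chosen after seeing the data. Counts from these 3 settings are given below in that order, as the stricter settings. Of their 46, 59 and 102 calls over all genes, 40, 50 and 88 were higher in members. Calf 1 has 1 cell in each class, and its values are given for some genes but were not tested.

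Most macrophage genes were higher in members. Of 23 genes in the list of macrophage identity, 17 had enough UMIs to be tested; 12 were higher in members, none was lower and 5 did not pass, with a median log2 difference of 1.73 against the -0.01 of all genes, of which 2.56% were higher. In the stricter settings 5, 6 and 7 were higher. FOLR2, the folate receptor of resident macrophages, was found at 2.09 and 2.95 UMIs per 10000 in the members of calves 2 and 3 and at 0.103 and 0.0138 in comparators (log2 difference 7.06 ± 0.58, SE; adjusted p = 9.28e-31). It was at 0 in both cells of calf 1. FCGR1A, the high-affinity receptor for IgG, was at 1.24 and 3.71 in members and at 0.103 and 0.0369 in comparators (6.27 ± 0.53). MSR1, a scavenger receptor, was at 3.14 against 0.414 in calf 2 and at 1.87 against 0.263 in calf 3 (2.78 ± 0.39), but at 1.80 against 3.81 in the single cells of calf 1. MRC1, the mannose receptor, was at 1.14 and 3.61 in members and at 0.620 and 0.803 in comparators (1.85 ± 0.36), with 1.80 against 2.86 in calf 1. FOLR2, FCGR1A and MSR1 passed in all 16 alternative settings that gave a test and MRC1 in 13 of them.

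VSIG4, a receptor for complement fragments on tissue macrophages, had 29 UMIs in members and 1 in comparators over calves 2 and 3, a ratio of 156 per UMI sequenced with a counting interval of 25.9 to 6374. The haemoglobin scavenger receptor CD163 was sparse, with 2 UMIs in the members of calf 2 and 30 in those of calf 3 (log2 difference 3.45 ± 0.65; adjusted p = 8.74e-06). STAB1, another scavenger receptor, differed by 4.12 ± 0.96, and TIMD4, a receptor for phosphatidylserine on dying cells, by 1.15 ± 0.31. TIMD4 was not low in comparators, at 1.45 and 4.11 UMIs per 10000 in calves 2 and 3 against 2.57 and 10.8 in members. CD14, a receptor for bacterial lipopolysaccharide, and CD68, a lysosomal membrane protein, stood apart in calf 3 and not in calf 2. In calf 2 CD14 stood at 0.856 UMIs per 10000 in members and 0.827 in comparators, and CD68 at 1.62 and 1.65. The pooled differences of CD14 (2.21; adjusted p = 4.18e-05) and CD68 (1.38; adjusted p = 0.00378) rested on calf 3. The member of calf 1 held 4 CD14 UMIs and no CD68 UMI. SPI1, a transcription factor gene that macrophages and dendritic cells both express, did not pass (-0.34; adjusted p = 0.900). AIF1, the gene of the list with the highest level in members, did not pass either (0.79), at -0.06 in calf 2 and 1.50 in calf 3. F13A1 did not pass (-0.43) and leaned lower in members in both calves, at -0.44 and -0.41. CX3CR1 (0.81) and CEBPB (0.67) were the others of the list that did not pass. MERTK, LYVE1 and MARCO had too few UMIs to be tested, and MAF was at 0 in both classes.

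**Figure D2:**
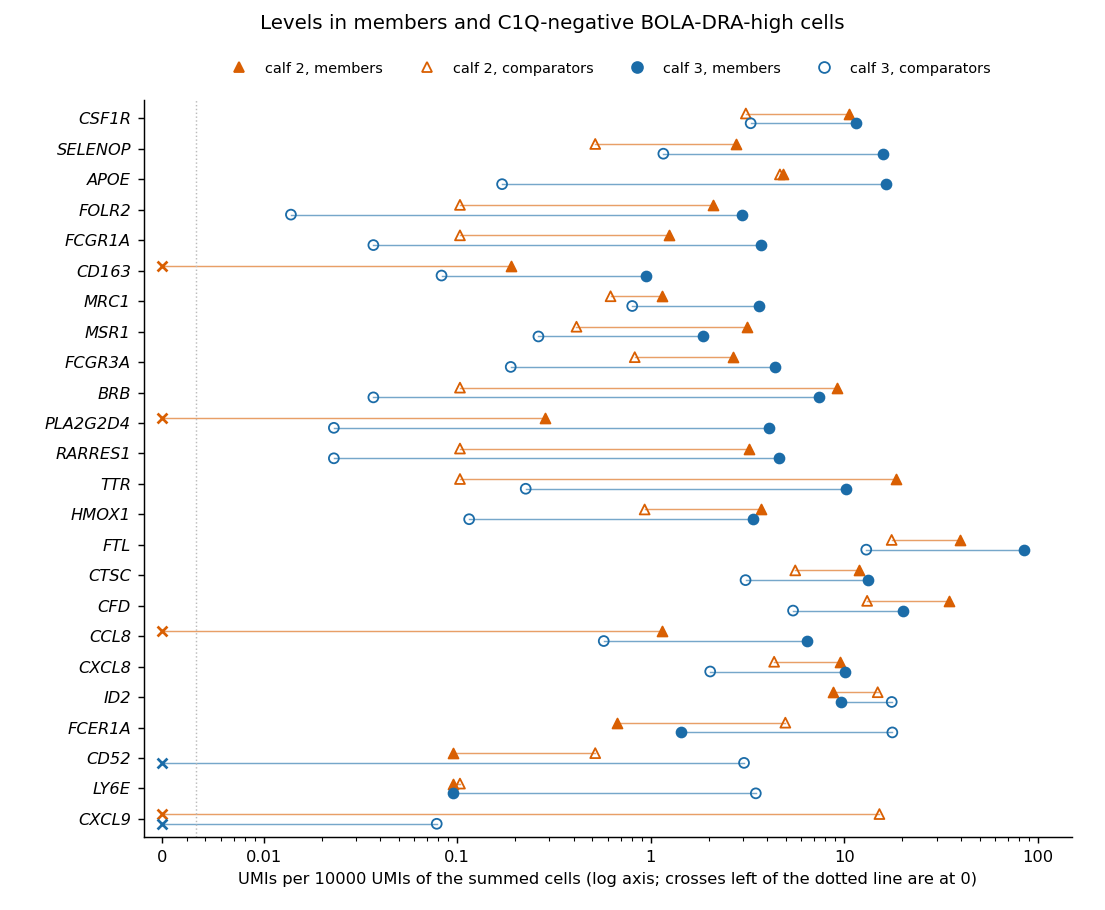
Levels of 24 named genes (rows) as UMIs per 10000 UMIs of the summed cells on a log axis, for calf 2 (triangles) and calf 3 (circles), in members (filled) and comparators (open); crosses are levels of 0. CSF1R, FOLR2, FCGR1A and TTR lie to the right in the members of both calves, APOE in calf 3 alone, and FCER1A lies to the left in the members of both.

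Receptors for antibody and for the uptake of dying cells differed less as a group. Of 18 listed genes 14 were tested, 3 were higher in members and 11 did not pass (median log2 difference 0.54; stricter settings 2, 2 and 2 higher). Besides FCGR1A, the IgG receptor FCGR3A was higher, at 2.66 and 4.40 UMIs per 10000 in the members of calves 2 and 3 against 0.827 and 0.189 (log2 difference 3.73 ± 0.39, SE; adjusted p = 1.27e-18). FCGR2B, the inhibitory IgG receptor, passed over both calves but had 6 UMIs in members and 7 in comparators in calf 2.

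Genes of lipid handling and secreted proteins followed the macrophage genes. Of 18 listed, 15 were tested, 10 were higher, 1 was lower and 4 did not pass, with a median of 1.78 (stricter settings 3, 5 and 9 higher, none lower). PLTP, which moves phospholipid between lipoproteins, was at 3.90 and 6.69 UMIs per 10000 in the members of calves 2 and 3 and at 0.931 and 0.503 in comparators (log2 difference 3.20 ± 0.35). LIPA, the lysosomal lipase, was at 3.04 and 3.14 against 0.414 and 0.508 (2.61 ± 0.36), so the calves hardly differed. NPC2, which carries cholesterol out of lysosomes, differed by 1.78 ± 0.33. TREM2, a receptor for lipid ligands, came from 5 members of calf 2 and 12 of calf 3 (3.096 ± 0.50). FABP5, CD36, LGALS3 and ACP5 were also higher, by 1.454 to 2.199, with LGALS3 at 1.33 and 1.34 UMIs per 10000 in the 2 classes of calf 2. For ACP5, 1 member held 33 of the 75 UMIs of all members. PLIN2, which coats lipid droplets, was lower in members (log2 difference -0.97; adjusted p = 0.0191).

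Lysosomal genes were also higher in members. Of 21 listed genes 19 were tested, 13 were higher, none was lower and 6 did not pass, with a median of 1.15, and the 19 genes had the same direction in calves 2 and 3. The stricter settings left 3, 1 and 6. CTSC, the protease that activates granule enzymes, was at 11.9 and 13.3 UMIs per 10000 in the members of calves 2 and 3 and at 5.58 and 3.09 in comparators (log2 difference 1.60 ± 0.27), with 9.02 against 10.5 in calf 1. CTSB and CTSD, the main lysosomal proteases, differed by 1.56 and 1.77, LGMN by 2.14 and CTSZ by 1.71. PSAP, the precursor of the saposins that help to degrade sphingolipids, was at 13.1 and 13.8 against 4.76 and 3.90 and was the 1 gene of the list that passed without the calf as a block. CTSS, which trims the MHC class II invariant chain, was abundant in both classes, at 23.7 and 35.7 in members and 11.7 and 19.9 in comparators (0.87 ± 0.23; adjusted p = 0.00481). Summed over the list, the level was 133 and 163 UMIs per 10000 in members, 78.0 and 71.2 in comparators and 17.4 and 14.04 in keratin-positive cells of calves 2 and 3.

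Iron and haem handling had 10 of 12 listed genes tested, of which 6 were higher and 4 did not pass (median 1.52; stricter settings 2, 3 and 3). HMOX1, which breaks down haem, was at 3.71 and 3.39 UMIs per 10000 in the members of calves 2 and 3 and at 0.931 and 0.115 in comparators (log2 difference 3.90 ± 0.39). FTL, the ferritin light chain, was at 39.5 and 84.7 against 17.6 and 12.997 (1.91 ± 0.22; adjusted p = 4.79e-15), and FTH1, the heavy chain, was at 89.3 and 109 against 78.9 and 44.1 (0.69 ± 0.20; adjusted p = 0.0153), but at 5.41 against 16.2 in calf 1. SLC40A1, the iron exporter, had 6 and 23 UMIs in members and 0 and 22 in comparators (2.90 ± 0.63). SLC11A1, the metal transporter of the phagosome, differed by 2.45 and STEAP3, an iron reductase, by 2.26.

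Beyond C1q itself, 11 of 20 listed complement genes were tested, 5 were higher and 6 did not pass, with a median of 1.23 (stricter settings 1, 2 and 3). CFD, which encodes complement factor D of the alternative pathway, was at 34.8 and 20.0 UMIs per 10000 in the members of calves 2 and 3 and at 13.1 and 5.44 in comparators (log2 difference 1.60 ± 0.23), but at 7.21 against 12.4 in calf 1. C2, which the C1 complex cleaves, was at 0.476 and 1.39 against 0.207 and 0.0692 (3.88 ± 0.55). C3AR1, the receptor for C3a, was at 0.761 and 1.49 against 0.207 and 0.0600 (4.18 ± 0.54), and C5AR1, the receptor for C5a, was at 0.666 and 1.204 against 0.620 and 0.0508, so that its difference of 3.33 rested on calf 3. C3 itself was low, with 4 and 13 UMIs in members. C1R had no difference that passed, and C1S, C4A, C5 and CFB had too few UMIs in both classes to be tested at this depth.

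Of the 12 genes with the largest differences in members, several fall outside these lists. BRB, a ribonuclease of the RNase A family, was at 9.14 and 7.41 UMIs per 10000 in the members of calves 2 and 3 and at 0.103 and 0.0369 in comparators (log2 difference 7.37 ± 0.46; adjusted p = 3.24e-54), and was found in 7 members of calf 2 and 19 of calf 3. RARRES1, a retinoic acid response gene, was at 3.24 and 4.63 against 0.103 and 0.0231 (7.18 ± 0.52). PLA2G2D4, a secreted phospholipase A2, was at 0.285 and 4.09 against 0 and 0.0231 (7.29 ± 0.60), but its UMIs in calf 2 came from 1 member. SCIN, an actin-severing protein, differed by 4.85, SMARCA1, a chromatin remodelling ATPase, by 4.86 and CTTNBP2 by 4.58, the last with 22 UMIs in members. TTR, the carrier of thyroid hormone and of retinol-binding protein, is in the dendritic list given below. It was higher in members in both calves tested, at 18.6 and 10.2 UMIs per 10000 in calves 2 and 3 against 0.103 and 0.226 in comparators (5.69 ± 0.35, edgeR adjusted p = 1.77e-55). In the single cells of calf 1 it was at 23.4 against 0.952, or 13 UMIs against 1. A TTR UMI was found in 42 of the 79 members.

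Chemokines and cytokines were mixed. Of 22 listed chemokine genes and receptors 15 were tested, with 6 higher, 2 lower and 7 not passing (median 0.13; stricter settings 2, 1 and 3 higher, with 0, 1 and 0 lower). CCL8, a chemokine for monocytes, was at 1.14 and 6.40 UMIs per 10000 in the members of calves 2 and 3 and at 0 and 0.572 in comparators (log2 difference 3.51 ± 0.39; adjusted p = 1.77e-16). CXCL8, the neutrophil chemokine, was at 9.52 and 10.1 against 4.34 and 2.03 (1.75 ± 0.28) and was found in 58 members. CCL2 differed by 1.85 and CCL4 by 0.92. CCL3 and CCL5 passed over both calves but had log2 differences of -0.30 and -0.13 in calf 2.

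CXCL9 and CXCL10, the chemokines induced by interferon gamma, had no UMI in any member. CXCL9 was at least 10.2-fold lower in members, taking the limit of 3 UMIs that a count of 0 allows over the members of both calves. Its UMIs in comparators came from few cells, with 147 in 1 cell of calf 2 and 17 in 4 cells of calf 3. Of 20 listed cytokine genes 14 were tested, 3 were higher (IL10, IL1RN and TNFSF13B, at log2 differences of 2.88, 1.52 and 1.47) and 11 did not pass, and none passed in the stricter settings. IL10 had 3 UMIs in each class in calf 2 (log2 difference -0.12), and its call ended when members under the BOLA-DRA limit were left out (2.47; adjusted p = 0.130). IL1B was at 4.76 and 1.65 UMIs per 10000 in the members of calves 2 and 3 and at 6.41 and 2.36 in comparators (-0.54; adjusted p = 0.555). TNF was at 2.95 and 3.01 against 1.76 and 1.82 (0.67; adjusted p = 0.359).

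Of 18 genes listed for sensing microbes 13 were tested (median 1.26) and 2 were higher (0, 0 and 2 in the stricter settings), the lectin receptors CLEC7A (1.99 ± 0.40) and CLEC6A (1.57 ± 0.32), with CLEC6A near equal in calf 2 at 3.14 and 2.90 UMIs per 10000. None of the tested Toll-like receptor genes passed. In the interferon list, with a median of 0.80, 2 of 14 tested genes were higher (1, 0 and 1 in the stricter settings), IFI6 (1.37 ± 0.26) in both calves and MX2 (1.28 ± 0.37) in calf 3, where members held 2.88 UMIs per 10000 against 0.909, and hardly in calf 2, with 0.761 against 0.724. Among growth factor genes, TGFBI, an extracellular matrix protein that TGF-beta induces, was the 1 of 7 tested that was higher (1.92 ± 0.34; median of the list 0.68; 0, 0 and 1 in the stricter settings). IGF1 was found at 7 UMIs in the members of calf 3 and at none in those of calf 2. In the cell cycle list none of 9 tested genes passed (median -0.28), and an MKI67 UMI was found in 1 member. Of 16 immediate-early and heat-shock genes, which can be induced by warm digestion of tissue, HSPA1A (1.53), HSPB1 (1.35) and IER3 (0.81) were higher in members and 13 did not pass (median 0.16; stricter settings 2, 0 and 1). HSPA1A stood at 16.1 and 36.2 UMIs per 10000 in members and 3.62 and 15.9 in comparators, and the part of dissociation in any other difference was not tested.

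**Figure D3:**
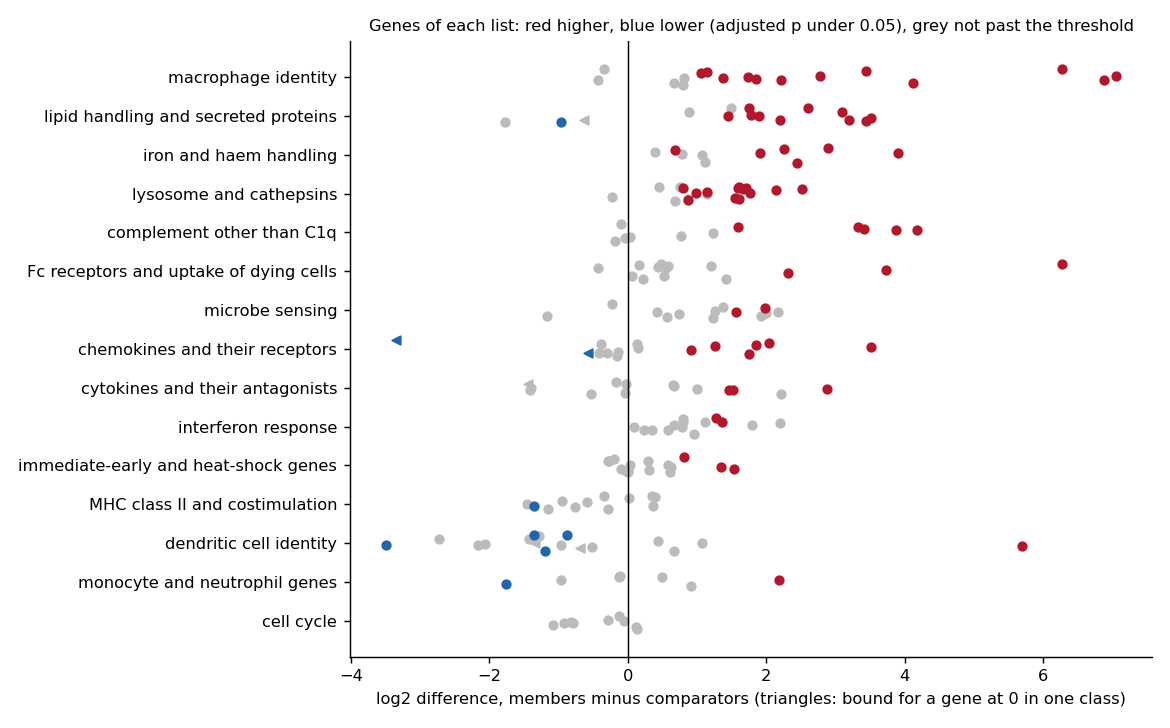
Log2 difference between members and comparators (x axis) for each tested gene of 15 gene lists (rows), with red points higher and blue points lower at an adjusted p under 0.05, and grey points not past it; triangles mark the bound for a gene at 0 in 1 class. The macrophage list holds 12 red points, the lysosome list 13 and the list of lipid handling 10, while the dendritic list holds 4 blue points and 1 red.

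Both classes were chosen with genes of antigen presentation, CD74 in members and BOLA-DRA in comparators. A BOLA-DRA level of at least 30 per 10000 was asked of comparators alone, and 9 members of calf 3 lay below it. The rule itself thus tilts genes that follow BOLA-DRA towards comparators, so the direction of this list cannot be read as a result about class II. Of 16 genes listed for MHC class II and costimulation besides those of the rule, 12 were tested, none was higher, CD40, a costimulatory receptor, was lower (log2 difference -1.36; adjusted p = 0.0202) and 11 did not pass (median -0.47; none passed in the stricter settings). BOLA-DMA, which loads peptide on class II, was at 11.04 and 7.16 UMIs per 10000 in the members of calves 2 and 3 and at 6.51 and 6.44 in comparators (0.37; adjusted p = 0.784). CD83 was at 6.47 and 6.97 against 5.998 and 9.70, and CD86 at 1.33 and 1.30 against 0.724 and 2.12, with no difference that passed.

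Dendritic cell genes other than TTR were lower or did not pass. Of 19 listed genes 17 were tested, 4 were lower (against 1.69% of all genes), TTR was higher and 12 did not pass. The median of the list was -1.28 (-1.198 with genes at 0 at their bound). In the stricter settings 1 was lower in each, FCER1A, and TTR stayed higher. FCER1A, a chain of the IgE receptor that marks dendritic cells of type 2, was lower in members in both calves tested. It was at 0.666 and 1.43 UMIs per 10000 in the members of calves 2 and 3 and at 4.96 and 17.7 in comparators (log2 difference -3.49 ± 0.33, edgeR adjusted p = 7.34e-23). In the single cells of calf 1 it was at 0 against 22.9, or 0 UMIs against 24. ID2, IRF8 and BATF3, transcription factors of dendritic cells, were also lower, with log2 differences of -0.88, -1.36 and -1.198. FLT3, the growth factor receptor of dendritic cells, was at 0.571 and 0.412 in members and 0.207 and 1.70 in comparators and did not pass (-1.43; adjusted p = 0.0560). CLEC9A had no UMI in members and 41 in the comparators of calf 3. CD1E, which handles lipid antigens, did not pass and differed in sign between calves. Members held 10.8, 5.52 and 2.22 UMIs per 10000 in calves 1, 2 and 3 and comparators 12.4, 1.86 and 2.54 (0.44; adjusted p = 0.785). A CD1E UMI was left in 39.5% of thinned members (28.4 to 51.4), 28.3% of comparators (23.5 to 33.6) and 0.0791% of keratin-positive cells.

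The other genes that were most reduced in members were largely absent from them. CD52, a small surface glycoprotein of leukocytes, had 1 UMI in the members of calves 2 and 3 together and 663 in comparators, a ratio of 123 with a counting interval of 22.04 to 4873. Of those 663 UMIs 658 were in calf 3, and in calf 2 the counts were 1 against 5 (log2 difference -1.69). LY6E, an interferon-inducible surface protein, was at 0.0951 UMIs per 10000 in the members of calf 3 and at 3.49 in comparators, but in calf 2 at 0.0952 and 0.103 (log2 difference -4.76 ± 0.60). FCRL5 was absent from members and had 7 and 120 UMIs in the comparators of calves 2 and 3, at least 7.87-fold lower. CD5, FABP3, PRAM1 and DEFB7 were absent likewise, at least 5.20-, 4.71-, 3.90- and 3.84-fold lower over both calves. These bounds rest on calf 3, where comparators held 83, 73, 62 and 61 UMIs of them, against 1, 3, 1 and 1 in calf 2. PRAM1 and DEFB7 passed in 9 of 15 alternative settings and CD5 and FABP3 in 12. MS4A8 had 1 UMI in members against 100, a ratio of 18.6 (3.26 to 741), with 97 of the 100 in calf 3. IDO1, which degrades tryptophan, had none in members and 20 UMIs in 1 comparator of calf 2 and 29 in 7 of calf 3.

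Among monocyte and neutrophil genes CSF3R, the receptor for the growth factor of neutrophils, was lower in members (log2 difference -1.76 ± 0.55) and 5 of the 7 tested did not pass (median of the list -0.11). None of the 7 passed in the stricter settings. FCN1, a lectin of blood monocytes, was found in 6 members and 6 comparators. In calf 2 it was at 2.00 UMIs per 10000 in members and 3.83 in comparators, with all of the latter in 2 cells. Of the 39 FCN1 UMIs of all members, 1 member of calf 2 held 20. The difference did not pass (0.91; adjusted p = 0.377), and the calves had opposite signs.

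Most genes that passed had a larger difference within calf 3 than within calf 2. Of the 332 genes, 306 had the same direction in both calves. The 200 genes that were higher in members had a median log2 difference of 1.22 in calf 2 and 2.11 in calf 3, and 163 of them differed more in calf 3. The 132 lower genes had medians of -0.94 and -1.68. With 1 calf on each side, the difference between calves was not tested. The sums of calf 3 also hold more cells, as given above. Each difference within a calf was computed with a small count added to each sum. That count shrinks the values of calf 2, whose sums are smaller, more than those of calf 3. The larger values in calf 3 can therefore come in part from the computation, and how large that part is was not tested.

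**Figure D4:**
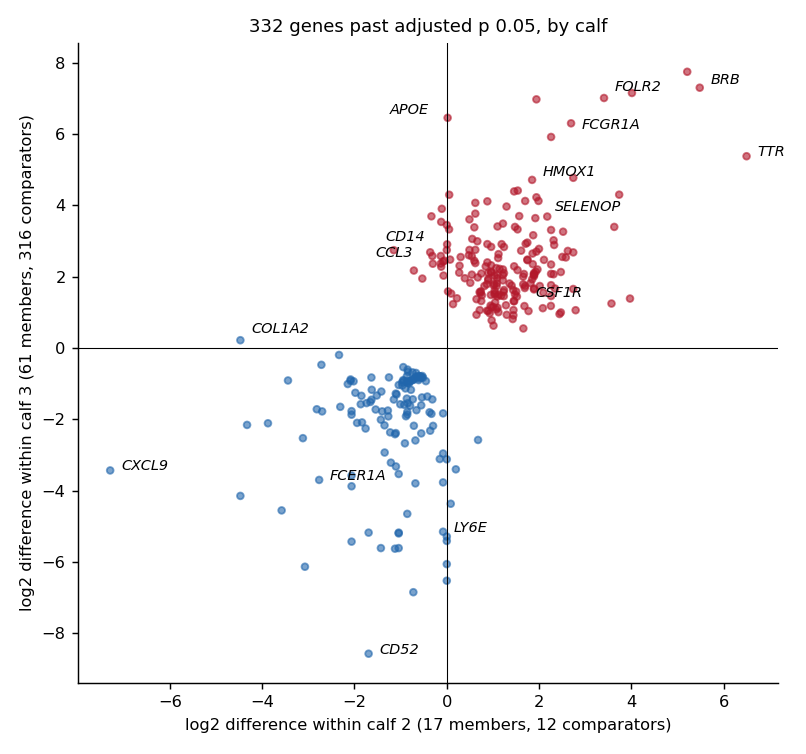
Log2 difference between members and comparators within calf 2 (x axis) and within calf 3 (y axis) for the 332 genes that passed, red when higher and blue when lower in members. For 306 genes the sign is the same in both calves, and APOE, CD14 and LY6E lie on the line of no difference in calf 2.

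Members also varied among themselves, which is described here without a test. Of 76 members thinned to 2000 UMIs, 26 had an APOE UMI. Among those 26, FOLR2 was found in 76.9%, against 18.0% of the 50 without APOE, and FCGR1A in 76.9% (20 of 26) against 11 of 50. These shares mix the calves and the 9 members of calf 3 with low BOLA-DRA described below. Without thinning, APOE, FOLR2 and FCGR1A were found in 1, 2 and 1 of those 9 cells. In the other 52 members of calf 3 they were found in 26, 29 and 38. Whether the genes go together within a calf was not tested. CD1E was spread more evenly, with 46.2% and 36.0%. APOE was also unequal: 5 of 79 members held 63.3% of its 570 UMIs, and 1 cell of calf 3 with 297 C1Q UMIs, the highest count of any member, held 147 of them. For CSF1R the 5 highest cells held 14.3% and for SELENOP 21.4%. In BRB, PLA2G2D4 and VSIG4 the 5 highest cells held 53.6%, 50.8% and 55.2%.

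A second axis was the level of MHC class II. In calf 3, 9 of 61 members lay under the BOLA-DRA limit of the comparators, with a median of 10.2 UMIs per 10000 against 148 in the other 52. They were smaller, with medians of 3029 and 5575.5 UMIs, yet richer in C1Q, with medians of 209 and 62.9 C1Q UMIs per 10000. CST3, the protease inhibitor that is abundant in dendritic cells, was at 3.32 in the 9 cells and 71.4 in the 52, CSF1R at 6.26 and 12.03, and FCGR1A at 0.368 and 4.02. TTR, CD1E, CCL8 and CXCR4 had no UMI in the 9 cells. APOE had 1 UMI in them against 518 in the 52, while SELENOP was at 11.4 and 16.2.

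Other genes, chosen after their values were seen, went the other way. FCGR3A was at 16.9 UMIs per 10000 in the 9 cells and 3.22 in the 52. VIM, an intermediate filament, was at 37.9 against 5.72 and S100A4, a calcium-binding protein, at 28.7 against 4.89. ADGRE1, which encodes the macrophage surface protein F4/80, was found in 5 of the 9 cells and in 1 of the 52, ITGAL, an integrin of circulating leukocytes, in 5 and 5, TNFSF10 in 6 and 3, and ECE1 in 5 and 0. In calf 2, the member with the most C1Q (217 UMIs) also had a low BOLA-DRA level of 41.8 UMIs per 10000, with 2 ADGRE1, 6 ITGAL and 8 FCGR3A UMIs. When the 9 cells were left out, the test gave 333 genes in place of 332, of which 310 were shared.

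**Figure D5:**
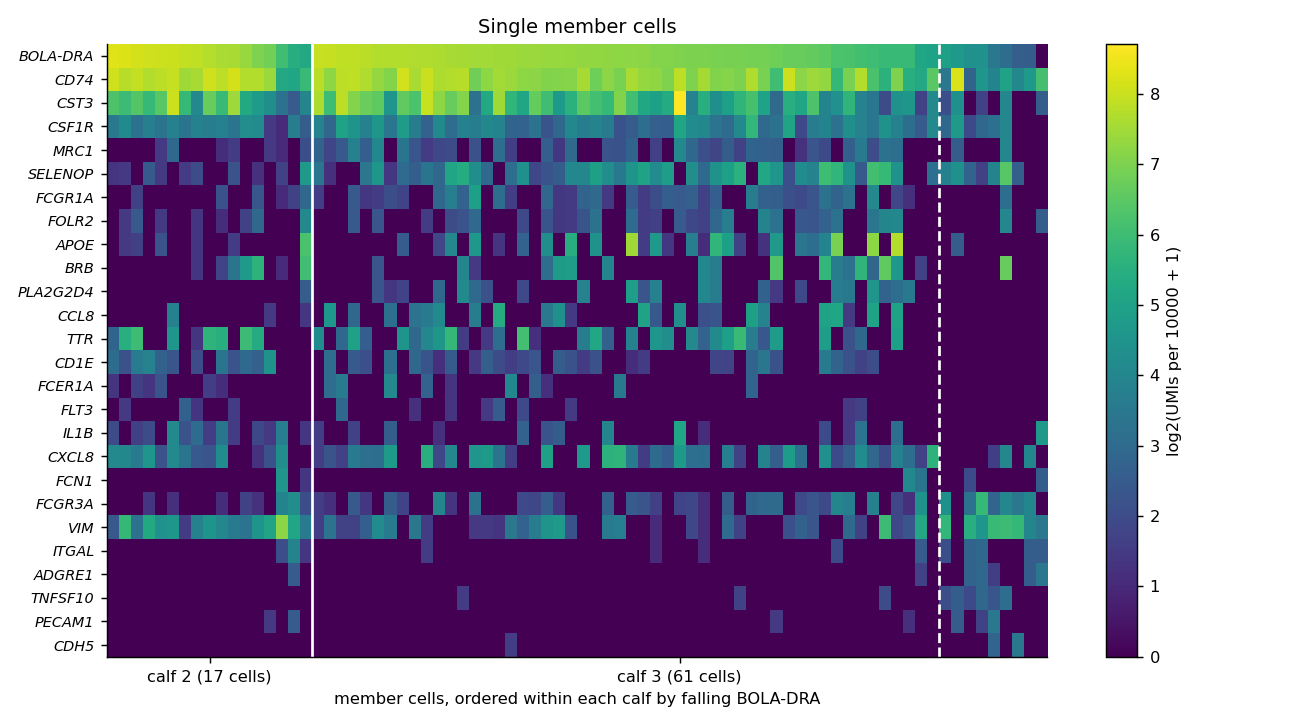
Each column is 1 member of calf 2 (left of the solid line) or calf 3, ordered within the calf by falling BOLA-DRA, each row a gene, and the colour is log2(UMIs per 10000 + 1). Right of the dashed line are the 9 members of calf 3 with BOLA-DRA under 30 UMIs per 10000, in which TTR and CD1E are at 0 and FCGR3A, VIM, ITGAL, ADGRE1 and TNFSF10 appear.

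Markers of other cell types were counted in the same cells. Among the T cell markers CD3D, CD3E, CD3G, CD2, CTSW and LCK had too few UMIs to be tested and CD3E had none in members. IL7R, from the same list, was higher in members, at 1.14 and 3.30 UMIs per 10000 in calves 2 and 3 against 0.414 and 0.434 (log2 difference 2.62 ± 0.40; adjusted p = 8.82e-09), a call lost with DESeq2 without its filter. Of the plasmacytoid markers BLNK was higher (2.07) and ITM2C lower (-1.51), and SPIB and TCF4 did not pass. ITM2C passed in none of the stricter settings and BLNK in the third alone. The plasma cell gene JCHAIN was lower (3 UMIs against 184, with none in calf 2), but 1 comparator held 173 of the 184. PECAM1 (-2.17), CDH1 (-2.18) and the fibroblast genes COL3A1, DCN and COL1A2 (-4.79, -3.97 and -3.25) were lower too. None of these genes, JCHAIN included, passed in the stricter settings. The fibroblast UMIs came from few comparators. For COL3A1 the 5 highest comparators held 53 of 60 UMIs, for DCN 48 of 60 and for COL1A2 26 of 31. CDH1 and COL1A2 had the other sign in 1 calf, at 0.09 in calf 2 and 0.22 in calf 3. The summed fibroblast markers stood at 0.285 and 0.190 UMIs per 10000 in the members of calves 2 and 3 and at 8.79 and 0.466 in comparators, and the mast and mural markers were at or under 0.310 in each class. Of the 12 comparators of calf 2, 2 held UMIs of at least 2 fibroblast markers. Epithelial markers summed to 2.19 and 0.697 in members, 1.86 and 1.39 in comparators and 33.3 and 19.7 in keratin-positive cells.

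UMIs of at least 2 markers of another cell type were found in 11 of 79 members and 80 of 329 comparators. In members these were epithelial markers in 6 cells, all of calf 2, endothelial markers in 2 cells, both of calf 3 and both among the 9 with low BOLA-DRA, and T cell, B or plasma cell and fibroblast markers in 1 cell each. Within the 9 cells, KDR, EMCN and PLVAP were each found in 2. The score against simulated doublets, which removed 3.91%, 8.52% and 8.39% of kept cells in calves 1, 2 and 3, marked no member and no comparator. It also marked none of the 2395 low-keratin cells in these libraries, so it says nothing about doublets among them. Whether these UMIs came from free RNA, from 2 cells in 1 droplet or from the cells themselves was not tested.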

How the data were processed

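Single-cell RNA was measured in the rumen of 3 newborn calves, 1 library each. Per the labels and the study's methods, the authors aligned the reads to ARS-UCD1.2 with Cell Ranger 3.1.0 and deposited whole-number UMI counts per gene and barcode, not normalized. From those counts, cells were kept and chosen as stated above, with no doublets removed. A level is the sum of a gene's UMIs over the cells of a class, per 10000. The members and the gene lists were chosen with earlier results of these data known, so the list counts are no independent support.

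Sums per calf were tested with edgeR 4.0.16 in R 4.3.3 (quasi-likelihood test, TMM, calf as a block because both classes come from the same animal, at least 20 UMIs per gene over the sums, Benjamini-Hochberg adjustment over all genes tested); DESeq2 1.42.0 was an alternative, with and without its independent filtering. The standard error is the log2 difference divided by the square root of the test's F. Cells were not used as replicates, in place of the rank test over cells that the study used. Leaving out a calf left 1 calf with both classes and so a value with no test. That value is also the log2 difference given within a calf. It is a difference of log2 levels with a small count added to each sum. Shares of cells were compared after thinning to 2000 UMIs, which left out 3 members, with exact Clopper-Pearson intervals that cover counting error only. A gene at 0 in 1 class was given as a bound, with 3 counts over calves 2 and 3 in place of 0.

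The genes named were the markers, the 12 largest and 12 smallest differences that passed with the same direction in both calves, the genes of each list that passed or had the highest level, and defining markers of other cell types. Other names were chosen after their values were seen. There were 24 gene lists, and a few of their genes are not reported here. The test was checked on simulated counts. The RefSeq table of ARS-UCD2.0 gave gene order only, and its coordinates were not used because its build differs from that of the files. The adult libraries were not analysed here.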

Additional observations from a re-analysis of the deposited data

Results flagged for a closer look

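C1Q signal was also present in barcodes outside the comparisons. With keratins at 10 per 10000 or over, 21 kept barcodes held at least 3 C1Q UMIs and CD74, 1 in calf 1, 8 in calf 2 and 12 in calf 3. Their keratin median was 49.7 per 10000, their CSF1R level was 8.72 UMIs per 10000 against 11.3 in members, and EPCAM was at 0.947 against 0.0235. The score against simulated doublets marked 7 of them. Outside the quality limits, 5 barcodes held at least 3 C1Q UMIs and CD74, of which 4 had over 4000 genes and 1 had under 500. Their median was 28968 UMIs with keratins at 148 per 10000. The source of the C1Q UMIs in these barcodes was not tested.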

How the results depend on the processing

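With at least 2 or 5 C1Q UMIs, at most 20% mitochondrial UMIs, no upper limit on genes, doublets removed, only members of BOLA-DRA at least 30 per 10000 or no cell with 2 markers of another cell type (the last 2 chosen after seeing the data, as was DESeq2 without its filter), the number of members stayed within 1.5 times 79. It was 50 with keratins under 5 per 10000, and between 18 and 78 when a calf was left out, with 18 without calf 3. The count of 332 genes was 67 with DESeq2 (54 higher, 13 lower), whose filter on mean counts left an adjusted p for 1904 of 7825 genes, 46 with DESeq2 without that filter (40 higher, 6 lower), 59 without the replicate block of the calf (50 higher, 9 lower) and 102 without cells holding 2 markers of another cell type (88 higher, 14 lower). With pools of 1 cell or more, which admit calf 1, 73 genes were lower. The higher genes made up 80.6%, 87.0%, 84.8% and 86.3% of the calls in the first 4 of these settings against 60.2%; the cause was not tested. Removing doublets took out no low-keratin cell and so left the calls as they were by construction. At most 20% mitochondrial UMIs and pools of 10 cells or more also kept the same members and comparators in calves 2 and 3. Their calls were therefore the same too. In the remaining settings the count lay between 228 and 336.

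With 1 calf left out there was no test. Without calf 2, 105 of 115 named genes kept their value within 1 SD of the calves' own values, 9 moved and 1 reversed. Without calf 3, 37 did, 70 moved and 8 reversed, so more named values moved without calf 3 than without calf 2. The value of 1 calf is a difference of log2 levels with a small count added, while the main value is the estimate of the test. The added count pulls values of calf 2 towards 0 more than those of calf 3. How many of the moves come from the computation was not tested. For the 9 that reversed, the log2 differences without calf 3 and without calf 2 were -0.071 and 2.03 for CD68, -0.052 and 2.45 for LGALS3, -0.33 and 3.69 for FCGR2B, -0.30 and 2.36 for CCL3, -0.13 and 2.37 for CCL5, -0.12 and 3.54 for IL10, 0.00 and -3.12 for JCHAIN, -4.47 and 0.22 for COL1A2 and 0.085 and -4.37 for CDH1. Depth limits genes such as MERTK, which had under 20 UMIs over the sums.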

Other observations

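Outside the gene lists, the genes below were chosen after their values were seen. ALOX5AP, which presents arachidonic acid to 5-lipoxygenase, was at 14.4, 8.94 and 5.54 UMIs per 10000 in the members of calves 1, 2 and 3 and at 8.57, 1.65 and 0.706 in comparators (log2 difference 2.71 ± 0.31, SE; adjusted p = 3.09e-15, edgeR). LTC4S, the synthase of leukotriene C4, was at 18.0, 5.90 and 2.91 against 0.952, 0.931 and 0.466 (2.59 ± 0.34), and both passed in the 16 alternative settings that gave a test. CYBB, a subunit of the phagocyte NADPH oxidase, was at 3.81 and 3.14 in the members of calves 2 and 3 against 1.03 and 0.378 (2.62 ± 0.35). The matrix protease genes MMP14 and MMP19 differed by 2.84 and 3.22, and TIMP2, an inhibitor of such proteases, by 2.41. RNASE6, an antimicrobial ribonuclease, was at 28.9, 15.6 and 28.0 against 8.57, 4.14 and 7.01 in calves 1, 2 and 3 (1.91 ± 0.25). NKG7, a granule protein known from cytotoxic lymphocytes, was found in 56 of 79 members (2.92 ± 0.36), with 1.80 against 2.86 UMIs per 10000 in calf 1.

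Of the genes lower in members, the actin gene ACTB was at 114 and 67.9 UMIs per 10000 in the members of calves 2 and 3 and at 212 and 123 in comparators (log2 difference -0.93 ± 0.19; adjusted p = 4.75e-05), though at 229 and 164 in the single cells of calf 1. It passed in 10 of 16 alternative settings, with a highest adjusted p of 0.9994. ACTG1 differed by -1.20 and LSP1, an actin-binding protein of leukocytes, by -1.33. The immunoproteasome gene PSMB9 differed by -1.67. CST3 was at 48.7, 67.7 and 65.6 in members against 125, 120 and 167 in comparators in calves 1, 2 and 3 (-1.15 ± 0.19; adjusted p = 2.79e-07). RBP4, the retinol-binding protein that TTR carries in blood, was lower in members (-1.89 ± 0.39), at 0.317 against 2.67 in calf 3 and at 1.43 against 1.55 in calf 2. CD1B was at 0.0952 and 0.0634 in the members of calves 2 and 3 and at 0.207 and 0.941 in comparators.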
